A study of Triticum aestivum with 2 samples.

Results

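MHS deserts are stretches of the bread wheat genome in which neither the seedling nor the spikelet had an MNase hypersensitive site (MHS). They were chosen by the positions of the MHSs themselves. The MHSs of both tissues were pooled, overlapping ones were merged, and every gap of 300 kb or more between neighbouring merged MHSs on the same sequence part was taken. The rule found 6650 deserts among 378282 gaps, which is 1.76% of them. Merging had left 378324 intervals, called merged MHSs here, out of 289446 seedling and 277119 spikelet MHSs. Number, length, place and spacing of the deserts follow from the rule and are given as a description, with no test.

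The MHSs came from MH-seq of cross-linked seedlings and spikelets of wild-type Chinese Spring, a cultivar of hexaploid bread wheat, with no treatment in either group. For the seedlings, the methods name above-ground parts under plant materials and whole seedlings under library preparation. The seedlings were 10 days old according to the sample labels and 9 days old according to the methods, and the spikelets were taken at the booting stage. Each tissue had 1 deposited list of MHSs, called by the authors on 2 merged biological replicates, so no value has a replicate error and nothing was tested between the tissues. Intervals in parentheses are 95% Wilson intervals unless stated otherwise, and cover counting error only. The lists place the MHSs on 21 chromosomes of version 1.0 of the IWGSC reference sequence, each cut into 2 sequence parts, and coordinates count from 1 within a part.

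MH-seq sequences short DNA fragments released from nuclei by micrococcal nuclease (MNase), an enzyme that cuts DNA most readily where it is not wrapped in nucleosomes or packed in dense chromatin. Sites of high sensitivity often mark promoters, enhancers and other regulatory DNA. Wheat chromosomes are large and rich in transposable elements, and their genes are concentrated towards the chromosome ends, while the interior around the centromere is gene-poor and largely heterochromatic. The lists hold no read coverage inside the deserts, and the authors kept only reads with a mapping quality of 20 or more. Closed chromatin and sequence on which too few reads could be placed can therefore not be told apart in any desert described here.

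Together the deserts held 2869 Mb, or 20.4% of the 14062 Mb that lay between the first and the last pooled MHS of the sequence parts. Most were close to the limit of 300 kb. The median length was 386 kb, with quartiles of 334 and 474 kb, against a median of 6.96 kb over all gaps. In all, 3640 deserts (54.7%) had less than 400 kb, 1635 (24.6%) had 400 to 500 kb, 1115 (16.8%) had 500 to 750 kb and 195 (2.93%) had 750 to 1000 kb. The remaining 65 (0.977%) reached 1 Mb, and 2 of them passed 2 Mb. The 3 shortest deserts had 300007 bp on part 1 of 3A from 218862645 to 219162651, 300023 bp on part 1 of 5A from 168465970 to 168765992, and 300030 bp on part 2 of 3B from 350511824 to 350811853. The 3 longest gaps that missed the limit had 299996 bp on part 1 of 5B from 318576373 to 318876368, 299975 bp on part 2 of 2A from 172757257 to 173057231, and 299919 bp on part 1 of 3B from 364548139 to 364848057. The lengths ran through the limit without a break.

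**Figure D1:**
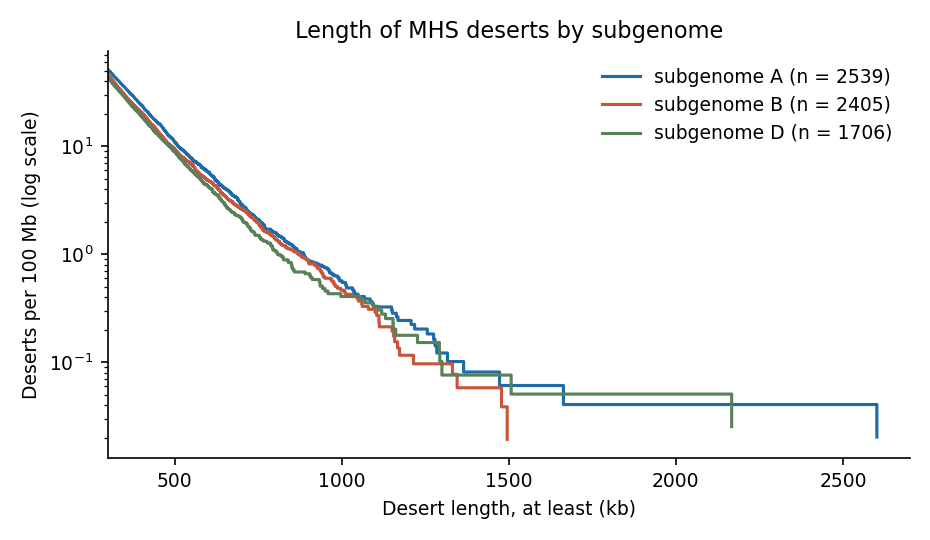
Number of deserts per 100 Mb of span (y axis, log scale) that had at least the length on the x axis (kb), with 1 line for each subgenome. The lines fall steeply from 300 kb, and at 300 kb they start at 51.5 in subgenome A, 46.4 in B and 43.2 in D.

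The longest desert lay close to a chromosome end. It spanned 2602 kb on part 1 of chromosome 3A, from 3092075 to 5693653, with its midpoint at 0.585% of the chromosome. Its left neighbour was an MHS called only in the spikelet, with a fold enrichment over the local background of 3.88, and its right neighbour was an MHS called only in the seedling, with a fold of 5.50. The second longest, with 2167 kb on part 1 of 5D from 145555908 to 147722981, lay at 25.9% of its chromosome, between a seedling-only MHS (fold 3.30) and an MHS common to both tissues (seedling fold 5.33, spikelet fold 5.24). The third had 1664 kb on part 2 of 5A from 52926975 to 54590553, at 71.4% of the chromosome, between a common MHS (7.31 and 9.39) and a seedling-only MHS (4.74).

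The next 7 in length had between 1331 and 1507 kb. Chromosome 5D held another of them on part 1, with 1507 kb from 152785877 to 154292930. The longest of subgenome B had 1495 kb and lay on part 1 of 4B from 292054958 to 293550236, at 43.5% of the chromosome, between a seedling-only MHS (fold 4.17) and a spikelet-only MHS (4.72). Part 1 of 2B held deserts of 1478 kb from 292132613 to 293610765 and of 1331 kb from 294209273 to 295540682. The others were 1472 kb on part 1 of 7A from 140656651 to 142129016, 1365 kb on part 1 of 3A from 318782947 to 320147809, and 1345 kb on part 1 of 4B from 260125702 to 261471156. Of these 10 deserts, the last named was the only one with common MHSs on both sides, with folds of 2.85 and 4.66 on its left and 6.42 and 8.71 on its right. The longest desert of a chromosome ranged from 1060 kb on 7B to 2602 kb on 3A, so every chromosome had at least 1 desert over 1 Mb.

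Bread wheat carries subgenomes A, B and D, each with 7 chromosomes, and the corresponding chromosomes of the 3 subgenomes form 7 homoeologous groups. Deserts were densest in subgenome A, with 2539 deserts or 51.5 per 100 Mb of span, followed by B with 2405 or 46.4 and D with 1706 or 43.2. The density of D was 0.839 times that of A (interval from the 2 counts 0.789 to 0.892) and that of B was 0.902 times that of A (0.853 to 0.954). Deserts took 22.4% of the span of A, 19.9% of B and 18.5% of D, which is 1107, 1032 and 730 Mb. The typical desert was about equally long in the 3 subgenomes, with medians of 391 kb in A and 383 kb in both B and D. Deserts of 1 Mb or more numbered 27, 23 and 15. The order of the deserts was not simply the reverse of the density of merged MHSs, which was 25.7 per Mb in A, 25.6 in B and 30.1 in D.

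Among single chromosomes, the share of span in deserts ran from 14.9% on 5D to 25.1% on 4A, and the number of deserts from 186 on 1D to 429 on 4A, with a median of 333. Subgenome A had the highest share in 7 of 7 homoeologous groups. Subgenome D had the lowest share in 6 groups, and the exception was group 2, in which 2A had 23.1%, 2B 17.9% and 2D 19.1%. Group 4 had the highest share as a whole, with 25.1% of 4A, 24.8% of 4B and 23.9% of 4D. Chromosome 4D stood above every chromosome of groups 1, 2, 3, 5 and 7. Group 5 had the lowest share as a whole, 17.8%, with 20.5% of 5A, 17.4% of 5B and 14.9% of 5D. Chromosome 5D thus had the smallest share in deserts and the second longest desert of the genome. The chromosome medians of desert length stayed between 376 kb on 3D and 399 kb on 6A, so that chromosomes differed in the number of deserts more than in their length.

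**Figure D2:**
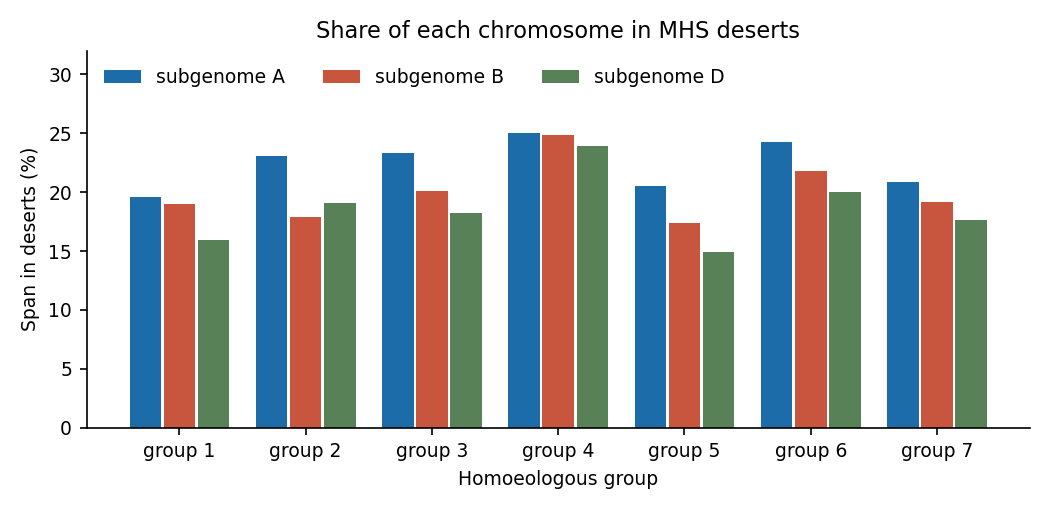
Share of each chromosome's span (%, y axis from 0) that lay in deserts, with 1 bar per chromosome, grouped by homoeologous group and coloured by subgenome. Subgenome A is highest in 7 of 7 groups, and the shares run from 14.9% on 5D to 25.1% on 4A.

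Deserts lay mainly in the interior of the chromosomes, taken as the central 50% of each chromosome's length. The interior held 68.3% of the desert length, 45.5% of the length of shorter gaps and 33.9% of the merged MHSs. It held the midpoints of 4439 deserts (66.8%, 65.6 to 67.9). Deserts covered 27.9% of the interior and 12.9% of the sequence outside it. On 21 of 21 chromosomes over 50% of the desert length was in the interior, from 58.8% on 5B to 80.5% on 7D. By subgenome the share was 67.8% in A, 66.6% in B and 71.5% in D. Interior deserts were also somewhat longer, with a median of 395 kb and 52 of the 65 deserts of 1 Mb or more.

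The beginning of the chromosomes, in the orientation of the reference, held more deserts than the end. The first 25% of the chromosomes held 1360 deserts (20.5%) with a median of 377 kb, and the last 25% held 851 (12.8%) with a median of 366 kb. Along the chromosomes in bins of 5% of their length, the share in deserts rose from 5.51% in the first bin to 37.4% between 35 and 40%, and then fell to 3.13% in the last bin. The bin from 35 to 40% also had the longest deserts, with a median of 423 kb, and the fewest merged MHSs, with 12.6 per Mb. In this bin the chromosomes ranged from 21 to 54.0%, so the profile of one chromosome could depart far from that of all. The highest bin was inside the interior on 20 of 21 chromosomes, and the exception was 5B, with 38.9% between 20 and 25%. The highest bins of all were 54.0% on 4D, 52.9% on 3D, 51.8% on 5D and 51.1% on 4A. Towards the ends deserts became few, with 413 (6.21%) in the outermost 10% of either end, 4 of them of 1 Mb or more. The longest desert of the genome, on 3A, was 1 of these 4.

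**Figure D3:**
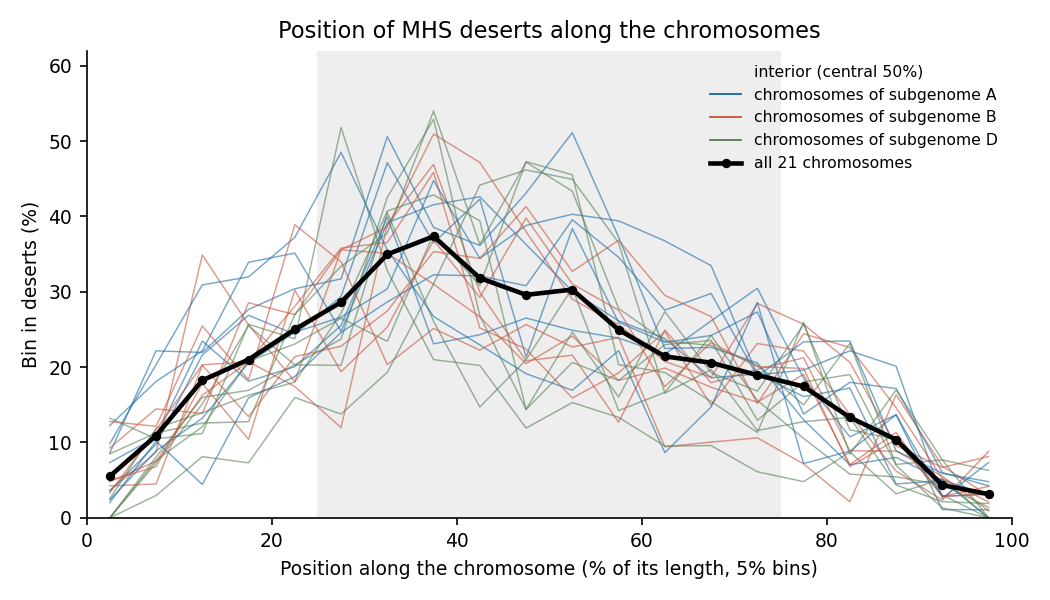
Share of each 5% bin of chromosome length (%, y axis) that lay in deserts, by position along the chromosome (% of its length, x axis), with a thin line for each chromosome, a thick line for all 21 together and the interior shaded. The thick line rises from 5.51% in the first bin to 37.4% between 35 and 40% and falls to 3.13% in the last.

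Deserts also lay next to each other. Of the 6650 deserts, 754 (11.3%) were parted from another desert by 1 merged MHS, and such MHSs are called islands here. There were 321 runs of 2 deserts, 33 of 3, 2 of 4 and 1 of 5. The runs and islands in this paragraph were chosen for description after their values were seen. The run of 5 lay on part 1 of 2A from 332158690 to 334454776 and held deserts of 666, 375, 325, 377 and 551 kb. Its 4 islands were a common MHS of 519 bp (fold 3.80 in the seedling and 8.54 in the spikelet), a seedling-only MHS of 219 bp (5.22), a common MHS of 857 bp (5.79 and 6.42) and a seedling-only MHS of 200 bp (3.30). Within 2.30 Mb of sequence, then, the pooled lists held 4 merged MHSs, and they were not all weak. The longest run by length was on part 1 of 3A from 1942435 to 6204305, where the longest desert stood between neighbours of 1149 and 510 kb. The 2 islands of this run of 4.26 Mb were the spikelet-only MHS of 327 bp and the seedling-only MHS of 205 bp that flank the longest desert.

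The densest 10 Mb of desert, again picked after seeing the values, was on part 1 of 5D from 144000001 to 154000000. It was 79.6% desert, with 11 deserts inside or reaching into it, among them the second and the fourth longest of the genome, and held 27 MHSs of the seedling and 25 of the spikelet. Part 1 of 4B from 194000001 to 204000000 followed, with 77.7% in 14 deserts, and with 42 and 30 MHSs. Every chromosome had 10 Mb of which at least 45.6% was desert, the lowest maximum being that of 5B.

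Beyond the first 50 kb, the sequence around deserts had fewer MHSs per Mb than the lists as a whole. In the first 50 kb outward from a desert edge, which begins with the flanking MHS, the seedling list had 28.7 MHSs per Mb and the spikelet list 28.0. These densities were 1.40 and 1.42 times the means of 20.6 and 19.7 over the whole lists, but below the 43.1 and 43.9 found beside gaps of any length. From 50 to 100 kb the densities were 15.7 and 14.7, and between 500 and 1000 kb they were still 15.3 and 14.4, or 0.744 and 0.731 times the list means. Beside gaps of 100 to 300 kb the densities between 500 and 1000 kb were 19.7 and 18.9, close to these means. From 50 kb up to 1 Mb around deserts, MHSs were thus sparser than the list means. These references were not matched for position on the chromosome. The interior held 66.8% of the desert midpoints and 33.9% of the merged MHSs. A trait of the surroundings of deserts can therefore not be told apart from one of chromosome position. The next gap beyond a flank that bordered a single desert had a median of 13.0 kb (quartiles 2.29 and 74.5 kb), longer than the 6.96 kb of all gaps, and 46.6% of these gaps were under 10 kb, against 56.9% of all gaps.

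The MHSs that flanked deserts were less often shared by the tissues than other MHSs. The rule pools the tissues and does not read the class of a flank. Class and gaps still come from the same MHS positions, so the class is not independent of the rule. The shares are therefore given as a description. A merged MHS is common when it holds MHSs of both lists, and otherwise seedling only or spikelet only. Of all merged MHSs, 47.8% were common, 28.3% were seedling only and 23.9% were spikelet only. The 6650 deserts had 12903 flanking merged MHSs, of which 397 (3.08%) were islands with a desert on both sides. Common MHSs made up 39.95% of the flanks (5155, interval 39.1 to 40.8) and 48.1% of the other merged MHSs. Seedling-only MHSs made up 37.5% of the flanks (4833, 36.6 to 38.3) and 28.0% of the others. Spikelet-only MHSs made up 22.6% (2915, 21.9 to 23.3) and 23.9%, a difference of little more than 1 percentage point. The lower share of common MHSs depended on the q required. When MHSs were pooled only if their q was 1e-05 or lower, which gave 10108 deserts, 55.8% of the flanks and 51.1% of the other merged MHSs were common, so the direction turned. At a q of 0.001 or lower the shares were 45.7 and 49.9%.

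With all MHSs pooled, the pattern was the same on every chromosome. The common share of flanks was below that of other merged MHSs on 21 of 21 chromosomes. It ran from 34.7% on 4D to 44.7% on 1D, and that of the other merged MHSs from 46.3 to 50.5%. The chromosomes come from the same lists and are not replicates. The seedling-only share of flanks was above that of the others on 21 chromosomes, from 31.8% on 1D to 41.1% on 4B. The spikelet-only share was higher on 3 chromosomes and lower on 18. Chromosome 4D, where deserts took nearly as much of the span as on 4A and 4B, had the lowest common share of flanks and the highest spikelet-only share, 25.8%. By subgenome, 39.0% of the flanks were common in A, 40.8% in B and 40.3% in D. In the interior 38.4% of flanks and 50.1% of other merged MHSs were common, and outside it 43.0 and 47.1%.

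The class of the flanks moved with the length of the gap from 3 kb upwards. Beside gaps under 1 kb 47.8% of the MHSs were common and 26.1% were seedling only. Of the MHSs beside gaps of 3 to 10 kb, 53.0% were common and 24.2% were seedling only. Beside gaps of 100 to 300 kb the shares were 42.0 and 35.8%, beside deserts of 300 to 500 kb 40.2 and 37.3%, and beside deserts of 500 to 1000 kb 35.8 and 40.6%. Beside the 65 deserts of 1 Mb or more 30.8% were common and 42.3% were seedling only, with few MHSs behind these shares. The change began well below 300 kb, and the limit of the deserts did not mark a step in it. The spikelet-only share stayed between 22.2 and 27.5% over all lengths. By pairs of flanks, 1043 deserts (15.7%, 14.8 to 16.6) had seedling-only MHSs on both sides, against 8.97% of shorter gaps, and 1122 (16.9%, 16.0 to 17.8) had common MHSs on both sides, against 24.5%. Spikelet-only MHSs stood on both sides of 376 deserts (5.65%) and of 6.28% of shorter gaps.

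**Figure D4:**
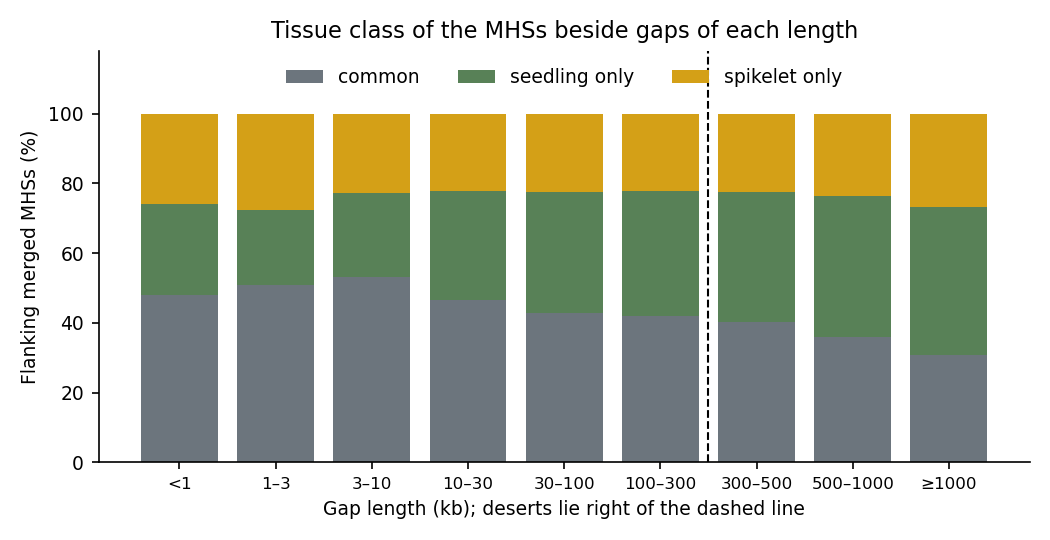
Share of flanking merged MHSs (%, stacked bars) that were common, seedling only or spikelet only, by length of the gap they flank (kb), with deserts to the right of the dashed line. The common share falls from 53.0% beside gaps of 3 to 10 kb to 30.8% beside gaps of 1 Mb or more, while the seedling-only share rises from 24.2 to 42.3%.

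The islands departed furthest from other MHSs. Of the 397 islands, 222 (55.9%, 51.0 to 60.7) were seedling only, 105 (26.4%) were spikelet only and 70 (17.6%) were common. Their median width was 258 bp, against 328 bp for all flanks and 362 bp for other merged MHSs. The median fold of the MHSs in islands was 3.81 in the seedling, from 2.69 to 12.8, and 4.18 in the spikelet, from 3.04 to 20.7. Among the MHSs in islands, a q of 1e-05 or lower was reached by 31.5% of 292 from the seedling list and 50.3% of 175 from the spikelet list. Over the whole lists it was reached by 66.1% in the seedling and by 81.1% in the spikelet. The whole lists hold more common MHSs than the islands, so these shares are not matched for class, and neither are the widths. Among MHSs that flanked no desert, this q was reached by 37.2% of the seedling-only and 65.6% of the spikelet-only ones.

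The strength of the flanks differed by class. The fold of an MHS is the pileup of reads at its summit relative to the local background, as the peak caller gave it. The background beside a desert is not independent of the rule, so the folds of flanks are given as a description. Common MHSs had a higher fold beside deserts than elsewhere, with about the same pileup over a lower background. Their median fold in the seedling was 5.15 (5.07 to 5.22, 95% interval of the median) in the flanks and 4.60 elsewhere, and in the spikelet 5.63 (5.56 to 5.70) and 4.92. Their median pileup was 32 reads in both places in the seedling, and 34 and 35 reads in the spikelet, while the median background was 5.46 and 6.12 reads for seedling MHSs, 4.92 and 5.88 for spikelet MHSs. A q of 1e-05 was reached by 86.8 and 83.4% in the seedling, and by 91.0 and 88.8% in the spikelet. MHSs of 1 tissue had about the same fold in both places but rested on fewer reads. Seedling-only MHSs had a median fold of 3.57 in the flanks and 3.54 elsewhere, with a median pileup of 14 and 18 reads, and 23.3 and 37.2% of them reached a q of 1e-05. Spikelet-only MHSs had a median fold of 3.88 and 3.83, with 16 and 25 reads, and 46.6 and 65.6% of them reached it. Over all classes, the median fold of the flanks was 4.10 in the seedling against 4.04 for other MHSs, and 4.79 in the spikelet against 4.44. The small seedling difference of 0.055 turned to -0.046 when only deserts of 500 kb or more were taken.

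The local background at the flanks was low. By the rule, a flank has no other merged MHS for 300 kb or more on at least 1 side. Its background is therefore not independent of the rule and is given as a description. The peak caller does not let the background of an MHS go below an estimate for the whole genome, and the background was at that lowest value for 8.05% of the seedling list and 4.97% of the spikelet list. Among the flanks it was 21.4% (20.6 to 22.2) in the seedling against 7.57% of other MHSs, and 14.2% (13.5 to 15.0) in the spikelet against 4.69%. Most of the excess was in the MHSs of 1 tissue. Of the seedling-only flanks 40.7% were at the lowest background, against 16.9% of other seedling-only MHSs, and of the spikelet-only flanks 33.6%, against 9.89%. Of the common flanks 3.45% in the seedling and 3.74% in the spikelet were at the lowest background, against 2.19 and 2.18%. The median background was 2.74 reads at seedling-only flanks and 4.32 at other seedling-only MHSs, and 3.14 and 5.38 reads at those of the spikelet. The low background moved with the tissue class of the flanks, and its part in the class was not tested.

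**Figure D5:**
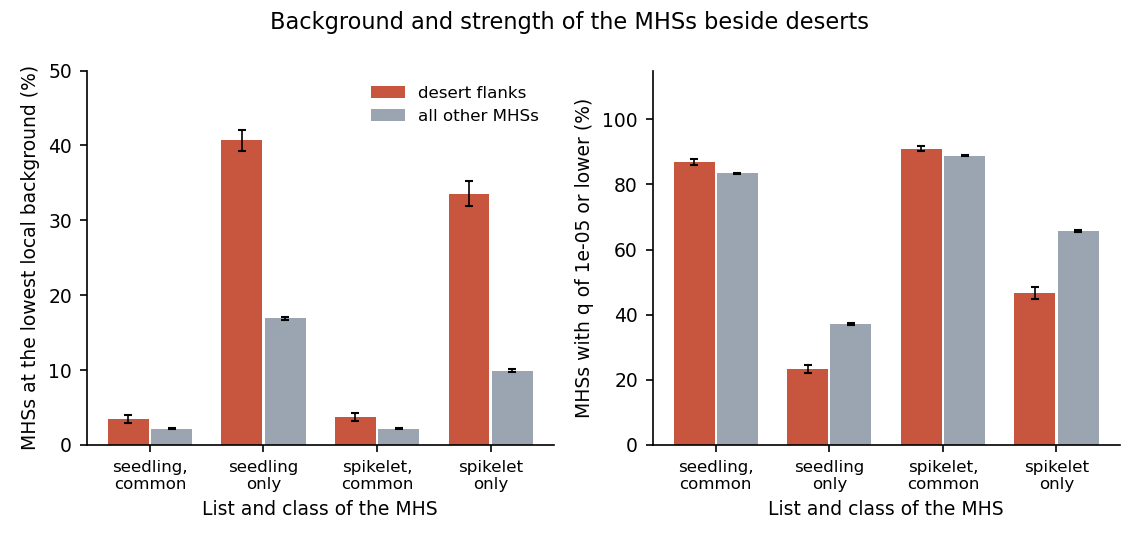
Share of MHSs (%) at the lowest local background (left) and with a q of 1e-05 or lower (right), for MHSs that flank a desert and all other MHSs of the same list and class, with 95% Wilson intervals. Among seedling-only MHSs 40.7% of the flanks and 16.9% of the others are at the lowest background, and 23.3 and 37.2% reach the q.

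Some of the MHSs with the highest fold bordered deserts. The fold depends on the local background, which beside a desert is not independent of the rule. The shares by fold are therefore a description. A desert was flanked by 3.46% of the seedling list and 2.98% of the spikelet list. By fold, the share was lowest in the lowest 10% of the MHSs of each list, 1.81% (seedling) and 1.45% (spikelet). It was highest in the highest 10%, 4.34 and 5.03%. It did not rise steadily in between. In the seedling it reached 4.06% in the fourth of 10 equal groups by fold and fell to 3.13% in the eighth, and in the spikelet it was 2.97% in the fifth and 2.57% in the seventh. Among MHSs with a fold of 12 or more it was 42 of 636 in the seedling (6.60%, 4.92 to 8.81) and 92 of 1005 in the spikelet (9.15%, 7.52 to 11.1). The following flanks were chosen for their fold after the values were seen. The strongest lay on part 1 of 2B from 268767457 to 268767846, beside a desert of 722 kb, with a fold of 32.5 in the seedling, the second highest of that list, and 27.7 in the spikelet. The next in the seedling list were on part 2 of 7B from 166474207 to 166474573, beside a desert of 515 kb, with a seedling fold of 23.6 and a spikelet fold of 20.8, and on part 1 of 4B from 258088207 to 258088577, beside a desert of 362 kb, with folds of 22.8 and 16.8. The next in the spikelet list differed between the tissues. On part 1 of 7A from 371668017 to 371668409, beside a desert of 452 kb, the fold was 26.3 in the spikelet and 4.12 in the seedling. On part 1 of 6B from 449144890 to 449145281, beside a desert of 301 kb, it was 24.0 in the spikelet and 4.17 in the seedling. Of these 5 flanks, 3 had a high fold in both tissues and 2 in the spikelet alone. Over all common flanks the spikelet fold was the higher one in 61.4%, against 58.6% of other common MHSs, with a median log2 ratio of spikelet to seedling fold of 0.12 (0.11 to 0.14) against 0.09.

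Taken alone, each tissue had more long gaps than the pooled lists. Leaving out a list only removes MHSs, so a greater total length of long gaps follows from the pooling. The seedling list had 8245 gaps of 300 kb or more, 2.85% of its gaps, with 3708 Mb or 26.4% of the span. The spikelet list had 9697, or 3.5% of its gaps, with 4705 Mb or 33.5% of the span. With the 200000 MHSs of lowest q in each list the spikelet still had more such gaps, 11474 against 11210. If a q of 1e-05 was required, which left 191420 seedling and 224632 spikelet MHSs, the order turned, with 11409 gaps in the seedling and 10991 in the spikelet.

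Around most pooled deserts, the gap of the seedling list alone was little longer than the desert itself. For 4006 deserts (60.2%, 59.1 to 61.4) both flanks were seedling MHSs, and for 2638 (39.7%, 38.5 to 40.9) both were spikelet MHSs. The gap of the single list around a pooled desert cannot be shorter than the desert. It was 1.00 times as long at the median in the seedling and 1.03 times in the spikelet, with upper quartiles of 1.05 and 1.38. It was at least 2 times as long for 172 deserts (2.59%) in the seedling and 630 (9.47%) in the spikelet. Around the longest desert the gap was 3751 kb in the seedling and 3428 kb in the spikelet.

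The gaps of one list were often broken by a few MHSs of the other. Of the 8245 seedling gaps, 3894 (47.2%) held no spikelet MHS, and 1718 (20.8%, 20.0 to 21.7) were broken into pieces that were all under 300 kb, 831 of them by 1 spikelet MHS. Of the 9697 spikelet gaps, 2543 (26.2%) held no seedling MHS, and 3375 (34.8%, 33.9 to 35.8) were broken in this way, 1018 of them by 1 seedling MHS. The 8317 seedling MHSs inside the 3375 spikelet gaps broken in this way had a median fold of 3.57, against 3.54 for other seedling-only MHSs. Of these 8317, 24.2% reached a q of 1e-05, against 37.7%. The 3441 spikelet MHSs inside the 1718 seedling gaps broken in this way had a median fold of 3.88, against 3.84 for other spikelet-only MHSs. Of these 3441, 47.3% reached that q, against 65.7%. In both comparisons the other MHSs include those inside gaps that still held a pooled desert.

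The longest seedling gap that the spikelet broke lay on part 1 of 3A from 1942435 to 5693653 and had 3751 kb, with 1 spikelet MHS of fold 3.88 inside. It was followed by 2014 kb on part 1 of 2B from 270447632 to 272461566, with 1 spikelet MHS of fold 3.35, and by 1895 kb on part 1 of 1B from 78574102 to 80469272, with 1 of fold 3.30. Each of these gaps was therefore cut by a single MHS. The longest spikelet gaps that the seedling broke had 3428 kb on part 1 of 3A from 3092075 to 6520540, with 3 seedling MHSs of fold up to 5.50, 2835 kb on part 1 of 3A from 318268944 to 321103511, with 7 of fold up to 3.85, and 2752 kb on part 1 of 5D from 144971624 to 147723142, with 2 of fold up to 4.40. All 6 gaps held 2 pooled deserts each. The gaps that follow were chosen after their values were seen. A seedling gap of 996 kb on part 1 of 7B from 340973527 to 341969250 held no pooled desert, and the 7 spikelet MHSs inside it had folds up to 22.8. A few gaps held many MHSs of the other list. A seedling gap of 534 kb on part 1 of 1D from 254067191 to 254601350 held 44 spikelet MHSs of fold up to 8.88, and also 1 pooled desert. A seedling gap of 459 kb on part 1 of 4D from 123320127 to 123778699 held 36 of fold up to 7.02. In all, 6 of the 8245 seedling gaps held 20 or more spikelet MHSs, and 0 of the 9697 spikelet gaps held 20 or more seedling MHSs, where the most was 19.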

How the data were processed

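Per the study's methods, the authors used fastp for trimming, Bowtie2 for mapping and Sambamba to remove duplicates, kept reads with a mapping quality of 20 or more, and called MHSs with MACS2 2.0 at a stated q of 0.01 on 2 merged replicates per tissue. The lists still held MHSs with a q over 0.01. They made up 8.63% of the seedling-only flanks and 4.90% of other seedling-only MHSs, and 3.40 and 1.01% of the spikelet-only ones. The deposited score of a peak is 10 times its −log10 q. The fold was deposited as the authors' ratio of pileup plus 1 to local background plus 1, and the −log10 p and −log10 q values are also the authors'.

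Peaks overlapping by at least 1 bp were merged over both lists, and gaps, classes and positions were computed with Python 3.11.15, numpy 2.4.6, pandas 2.3.3 and scipy 1.17.1. Figures were drawn with matplotlib 3.10.9. Pileup and background were solved from fold and p. Chromosome length was the end of the last pooled MHS of each part, summed over the 2 parts. Sequence before the first and after the last MHS of a part was left out. The read depth of the lists is not given in the sources used here. The number of MHSs behind each share sets its Wilson interval.

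Regions were named by a rule: the 10 longest deserts, the longest of each subgenome, the 3 deserts and 3 gaps nearest to the limit, and the 3 longest gaps of each list that the other list breaks. The deserts and lists were chosen with earlier results of these data known. Other q thresholds, limits, merging distances, interiors, overlaps and single lists were tried. Simulated data were used to test how gaps and backgrounds were computed. Gene annotation and sequence of this build were not used here.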

Additional observations from a re-analysis of the deposited data

How the results depend on the processing

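The number of deserts (6650) became 10108 when a q of 1e-05 was required, 15851 with a limit of 200 kb and 1375 with a limit of 500 kb, and their total length (2869 Mb) became 5052, 5099 and 899.6 Mb, and 4705 Mb with the spikelet list alone. The interior held 64.3% of the desert length at 200 kb and 75.4% at 500 kb, and 43.0 and 94.1% when the interior was taken as the central 30 and 80% of the chromosome. The common share of flanks (39.95%) was 41.3, 45.7 and 55.8% with a q of 0.01, 0.001 and 1e-05 or lower, 41.9% at 200 kb, 35.8% at 500 kb 39.1% when an overlap of 50% of the smaller MHS was needed and 45.8% when MHSs 1 kb or less apart were merged. Its difference from other merged MHSs (-8.14 percentage points) was -4.20 at a q of 0.001 and 4.75 at 1e-05, where its direction turned, -6.41 at 200 kb, -12.1 at 500 kb and -9.68 with that merging. This difference under other settings, the common share with that merging and the single lists under other q thresholds were added after seeing the data. The difference of median fold in the seedling (0.055) was 0.167 at a q of 0.001, 0.383 at 1e-05, 0.083 at 200 kb and -0.046, a turn of direction, at 500 kb, and in the spikelet (0.355) it was 0.524 and 0.730 at the same q thresholds. The causes were not tested. The other 34 alternative values, among them those of both subgenome ratios, moved by less than their error or, for counts and lengths, less than 1.5 times. Merging also left the number of deserts at 6650. No paired analysis was possible because there is 1 list per tissue. The deposited lists show only called MHSs, so a desert is a stretch without a call at this depth, and MHSs too weak to be called may lie in it.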

Other observations

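The rule leaves out the stretch before the first pooled MHS of a sequence part, which had a median of 20.8 kb over the 42 parts. It exceeded 300 kb on 2 parts, with 483 kb on part 2 of 2A and 328 kb on part 1 of 4D. The former lies where the chromosome was cut into parts, so it may continue the last gap of part 1, whose full length was not analysed here.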
